A study of Mus musculus with 16 samples.

Results

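A set of 8 genes of lipid handling was followed across 16 RNA-seq libraries of cells sorted from mouse cortex: Cd36, Msr1 and Lpl, which take up lipid or release it for uptake, Fabp4 and Fabp5, which bind fatty acids inside the cell, and Soat1, Plin2 and Plin3, which make or coat lipid droplets. They were chosen by name, with earlier results of these data known, and all 8 were found by symbol among the 13982 genes of the table. The cells were stained for CD45 and CD11b and labelled as microglia, the resident macrophages of the brain. All mice are labelled C57BL/6, and each of the 4 groups has 4 libraries.

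MCAO+AS-exos and MCAO+Ctrl-exos mice underwent middle cerebral artery occlusion, a model of ischemic stroke, and received 150 μg of plasma exosomes into the tail vein every 3 days, beginning on the day of the operation. Exosomes are small vesicles that cells shed into body fluids. Those used here came from Apoe knockout mice, which lack the apolipoprotein that clears remnant lipoproteins, kept either on a western diet for 12 weeks to produce atherosclerosis or on a normal diet. The labels do not spell out AS or Ctrl and do not say which diet belongs to which code. MCAO mice had the occlusion and no exosomes are named for them, and Sham mice are labelled untreated. The age and sex of the mice, any vehicle, the time from operation to sorting, and whether each library is a separate mouse are not given in the sources used here, so p-values measure the spread between these libraries, which may be technical.

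As background, macrophages take up modified lipoproteins and cell debris through scavenger receptors such as CD36 and MSR1, and lipoprotein lipase frees fatty acids from triglyceride at the cell surface. Fatty acid binding proteins carry the fatty acids through the cytosol. Surplus sterol and fatty acid are esterified and stored in droplets coated by perilipins, and macrophages that hold many droplets are known as foam cells in atherosclerotic plaques and after injury of the myelin-rich brain.

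The values, read as FPKM (fragments scaled by the length of the transcript and by the fragments of the library), summed to 758283 to 983648 per library, and 8813 to 10003 genes reached 1 FPKM. Depth is unknown, so no counting error is given. The libraries of the operated cortex held little of the homeostatic microglial programme: the summed level of 12 of 12 such markers was 1302 to 1968 FPKM in MCAO+AS-exos, 1336 to 1401 FPKM in MCAO+Ctrl-exos and 1175 to 2006 FPKM in MCAO, against 21725 to 23846 FPKM in Sham. P2ry12, the microglial purinergic receptor, had a median of 58.2 FPKM in MCAO+AS-exos, 28.5 FPKM in MCAO+Ctrl-exos, 48.3 FPKM in MCAO and 4161 FPKM in Sham. Replicate 4 of MCAO+AS-exos stood apart from its group: on the second principal component, with 10.9% of the variance, it scored 13.8 and the other 3 scored -68.1 to -57.4. Replicate 1 of MCAO+Ctrl-exos scored 32.8 on it, against -0.74 to 7.39 for the other 3. Results between exosome groups are therefore also given without replicate 4.

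All 8 genes were higher in MCAO than in Sham, and in each of them the lowest MCAO library lay above the highest Sham library. Of all tested genes, 24.5% were higher at an adjusted p of 0.05 in limma and 21.8% were higher without overlap. Fabp5 and Plin2 were among the most abundant transcripts of every library from MCAO mice, with or without exosomes, while in Sham they ranked far lower. Between the 3 groups of MCAO mice none of the 8 passed the threshold, an adjusted p of 0.05, when all libraries were used. The share of all tested genes that passed ran from 0.0738% to 6.14% over these comparisons. Msr1 was higher and Fabp4 lower in every MCAO+AS-exos library than in any MCAO+Ctrl-exos library. Plin3 was also lower without overlap, and 10.2% of all tested genes did not overlap between these groups. Msr1 and Fabp4 passed the threshold once MCAO+AS-exos replicate 4 was left out, which also raised the share of all tested genes called to 12.0%, against 0.286% with all libraries. The Msr1 call was lost again when MCAO+Ctrl-exos replicate 1 was left out too (adjusted p = 0.0615).

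**Figure D1:**
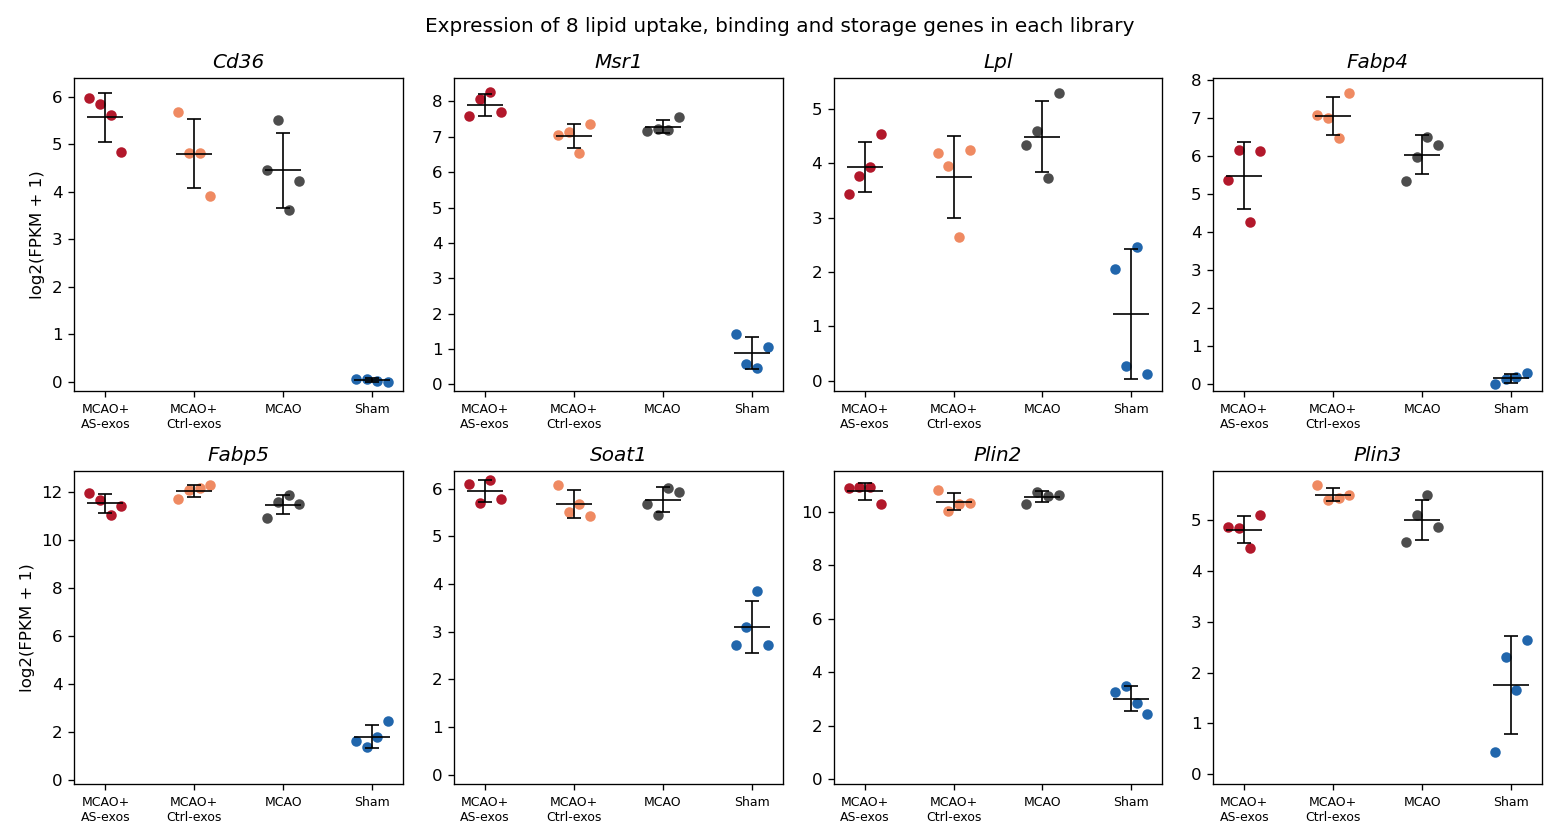
Level of each of the 8 genes in the 16 libraries as log2(FPKM + 1); points are libraries, and bars give the mean and SD of the 4 libraries of a group. Every gene is higher in the 12 libraries of MCAO mice than in the 4 Sham libraries, and Fabp4 in MCAO+AS-exos lies below Fabp4 in MCAO+Ctrl-exos.

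Cd36, the class B scavenger receptor that binds oxidised lipoproteins and long-chain fatty acids, was almost absent from Sham cells. It measured 62.0, 56.5, 48.3 and 27.4 FPKM in MCAO+AS-exos libraries 1 to 4 and 50.1, 27.1, 27.4 and 14.1 FPKM in MCAO+Ctrl-exos. In MCAO it measured 21.1, 44.3, 11.3 and 17.8 FPKM, against 0.05, 0.05, 0.02 and 0 FPKM in Sham. The 3 groups of MCAO mice overlapped each other, and none overlapped Sham. Cd36 rose in MCAO against Sham by 4.41 ± 0.41 on the log2(FPKM + 1) scale (SE of the limma fit, n = 4 each; adjusted p = 5.41e-08). With Sham this close to 0 the fold depends on the added 1, and with 0.1 added in its place the log2 difference was 7.35.

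Msr1 encodes the class A scavenger receptor, which takes up modified lipoproteins and debris. It measured 191, 268, 305 and 206 FPKM in MCAO+AS-exos and 132, 139, 91.4 and 163 FPKM in MCAO+Ctrl-exos. MCAO libraries had 144, 148, 144 and 187 FPKM, and Sham libraries had 1.70, 0.48, 0.37 and 1.09 FPKM. Every MCAO+AS-exos library lay above every library of the other groups, although the gap to the highest MCAO library was small. Msr1 averaged 156 ± 20.9 FPKM in MCAO and 0.91 ± 0.62 FPKM in Sham (SD, n = 4 each), a log2 rise of 6.40 ± 0.27 (SE; adjusted p = 2.05e-13).

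Lpl, lipoprotein lipase, had the lowest mean of the 8 in each group of MCAO mice. It measured 9.87, 12.7, 14.3 and 22.4 FPKM in MCAO+AS-exos and 17.2, 14.4, 5.23 and 17.9 FPKM in MCAO+Ctrl-exos. MCAO libraries had 19.1, 23.2, 12.2 and 38.4 FPKM, and Sham libraries had 3.14, 0.20, 4.49 and 0.09 FPKM. Sham thus held 2 libraries above 3 FPKM and 2 at or below 0.20 FPKM, and the groups of MCAO mice overlapped throughout. Lpl rose in MCAO by 3.26 ± 0.52 (log2, SE; adjusted p = 5.5e-05), the widest error among the 8.

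Fabp4 encodes the fatty acid binding protein of adipocytes and macrophages. It measured 40.5, 69.6, 18.1 and 68.9 FPKM in MCAO+AS-exos and 135, 125, 86.9 and 200.1 FPKM in MCAO+Ctrl-exos. MCAO libraries had 39.3, 61.2, 89.8 and 77.4 FPKM, and Sham libraries had 0, 0.09, 0.13 and 0.21 FPKM. MCAO+Ctrl-exos lay above MCAO+AS-exos in every library, and MCAO overlapped both. Against Sham, Fabp4 rose in MCAO by 5.88 ± 0.39 (log2, SE; adjusted p = 2.92e-10), and by 8.38 with 0.1 added in place of 1.

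Fabp5, the epidermal-type fatty acid binding protein that macrophages also carry, showed the largest log2 difference of the 8. It measured 4031, 3321, 2118 and 2789.6 FPKM in MCAO+AS-exos and 3343, 4400.3, 4609 and 5063 FPKM in MCAO+Ctrl-exos. MCAO libraries had 1954, 3097, 3818 and 2959.9 FPKM, and Sham libraries had 2.05, 1.56, 2.41 and 4.46 FPKM. Among all 13982 genes it ranked between 21 and 53 in MCAO+AS-exos, between 21 and 28 in MCAO+Ctrl-exos and between 21 and 47 in MCAO, against ranks of 7360 to 8675 in Sham. Fabp5 averaged 2958 ± 767 FPKM in MCAO and 2.62 ± 1.28 FPKM in Sham (SD, n = 4 each), a log2 rise of 9.69 ± 0.26 (SE; adjusted p = 1.04e-15). By p-value it stood at rank 2 of the 10846 genes tested.

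Soat1 encodes sterol O-acyltransferase, the endoplasmic reticulum enzyme that esterifies cholesterol for storage. It measured 67.7, 51.2, 71.5 and 54.2 FPKM in MCAO+AS-exos and 66.7, 44.6, 50.1 and 42.3 FPKM in MCAO+Ctrl-exos. MCAO libraries had 50.5, 42.4, 63.2 and 60.4 FPKM, and Sham libraries had 5.56, 7.55, 13.5 and 5.60 FPKM. It had the highest Sham mean of the 8 genes, 8.05 ± 3.75 FPKM (SD, n = 4), and its ratio of means between MCAO and Sham was the smallest, 6.72. Soat1 rose in MCAO by 2.67 ± 0.29 (log2, SE; adjusted p = 3.65e-07).

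Plin2 encodes the perilipin found on droplets of most cell types and used as a marker of foam cells. It measured 1887, 1956, 1931 and 1245 FPKM in MCAO+AS-exos and 1795, 1049.8, 1236 and 1293 FPKM in MCAO+Ctrl-exos. MCAO libraries had 1236, 1714, 1521 and 1589 FPKM, and Sham libraries had 8.56, 10.2, 6.22 and 4.36 FPKM. It ranked between 59 and 197 in every library of MCAO mice and between 4756 and 7415 in Sham. Plin2 rose in MCAO by 7.55 ± 0.24 (log2, SE; adjusted p = 6.85e-15), and MCAO averaged 206 times Sham.

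Plin3, a perilipin that exchanges between cytosol and newly formed droplets, moved on a smaller scale. It measured 28.3, 27.7, 20.9 and 33.2 FPKM in MCAO+AS-exos and 50.9, 41.1, 42.2 and 43.9 FPKM in MCAO+Ctrl-exos. MCAO libraries had 22.9, 33.1, 44.4 and 28.03 FPKM, and Sham libraries had 0.35, 3.95, 2.15 and 5.21 FPKM. MCAO+AS-exos lay below MCAO+Ctrl-exos without overlap, and MCAO spanned most of both. Plin3 rose in MCAO by 3.25 ± 0.38 (log2, SE; adjusted p = 1.2e-06), and MCAO averaged 11.0 times Sham.

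The 2 perilipin genes parted in scale while both rose, so their start regions are shown side by side. They come from RefSeq on the mouse build GRCm38.p6, 250 bases before to 20 after the annotated start, read on the minus strand 5′ to 3′, with Plin2 at chr4:86670040-86670309 and Plin3 at chr17:56290492-56290761.
Plin2: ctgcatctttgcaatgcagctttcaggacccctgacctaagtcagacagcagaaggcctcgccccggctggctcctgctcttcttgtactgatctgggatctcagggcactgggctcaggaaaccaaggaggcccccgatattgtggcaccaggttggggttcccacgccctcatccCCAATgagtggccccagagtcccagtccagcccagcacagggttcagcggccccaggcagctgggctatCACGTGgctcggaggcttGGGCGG
Plin3: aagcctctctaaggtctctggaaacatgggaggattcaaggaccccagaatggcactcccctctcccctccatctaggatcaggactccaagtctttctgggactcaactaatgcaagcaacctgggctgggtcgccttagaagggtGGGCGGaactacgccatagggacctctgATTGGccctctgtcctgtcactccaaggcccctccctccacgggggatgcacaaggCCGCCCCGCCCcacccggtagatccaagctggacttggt
Capitals mark short promoter elements searched on both strands: the GC box GGGCGG, the CCAAT box CCAAT and the E-box CACGTG. Plin2 held 1 GC box, 1 CCAAT box and 1 E-box, which spans the start. Plin3 held 3 GC boxes, 2 of them on the opposite strand and sharing 1 base, and 1 CCAAT box on the opposite strand, and no E-box. Of 32851 promoters of this length, 34.1% held a GC box, 35.4% a CCAAT box and 6.57% an E-box. Neither held the TATA box TATAAA, present in 12.9%,. These matches describe letters in a window and say nothing of factor binding. The regions of Soat1 and Cd36 were also found; each held 1 CCAAT box, and Cd36 held 2 GC boxes.

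Set against all genes, the members' rise in MCAO was counted in the same fit. Of the 10846 genes tested, 39.2% differed between MCAO and Sham at an adjusted p of 0.05 (24.5% higher and 14.8% lower), and all 8 members were higher. The 4 MCAO and 4 Sham libraries did not overlap in 33.8% of tested genes. MCAO was the higher group without overlap in 21.8% of tested genes and in all 8 members. Since the members were chosen with such results known, their count is a description. Cd36 and Fabp4 reached 1 FPKM in no Sham library, so they entered the test through the MCAO mice alone. Msr1 and Lpl reached it in 2 Sham libraries and Plin3 in 3, short of the 4 that the filter asks. They too passed the filter only with the MCAO mice, where they are high. The median log2 difference of the members was 5.15 and that of all tested genes 0.25. With quantile normalization the all-gene median was -0.03, and the calls were 2084 higher and 2164 lower in place of 2654 and 1600. With trends in length and GC content removed they were 1920 higher and 2013 lower. All 8 members were called higher under each of the 17 alternatives run on this comparison.

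These libraries measure bulk RNA, in which fewer cells of a type and less RNA per cell cannot be told apart. Summed markers of myeloid cells other than homeostatic microglia moved with the 8 genes between Sham and MCAO mice. The summed level of 12 of 12 monocyte and macrophage markers was 8098 to 25812 FPKM in MCAO+AS-exos, 8995 to 18166 FPKM in MCAO+Ctrl-exos and 7850 to 12324 FPKM in MCAO, against 237 to 658 FPKM in Sham. The 9 of 10 border macrophage markers in the table summed to 3045 to 5710 FPKM in MCAO+AS-exos, 3711 to 4400 FPKM in MCAO+Ctrl-exos and 1918 to 4530 FPKM in MCAO, against 2.84 to 60.5 FPKM in Sham. F13a1 is counted in both this list and the monocyte list, and Pf4 made up most of the border sum in MCAO mice. The 9 of 12 neutrophil markers summed to 3539 to 8190 FPKM in MCAO+AS-exos, 1834 to 3657 FPKM in MCAO+Ctrl-exos and 1723 to 9985 FPKM in MCAO, against 76.8 to 144 FPKM in Sham, where Retnlg was at 0. S100a8 and S100a9 made up most of this sum in MCAO mice, and Csf3r most of it in Sham. Csf3r did not rise: it averaged 94.4 FPKM in Sham, 76.2 FPKM in MCAO, 60.4 FPKM in MCAO+Ctrl-exos and 65.4 FPKM in MCAO+AS-exos. Of the 9 markers, 7 were called higher in MCAO than in Sham, beside 24.5% of all tested genes, and none lower. All of these sums were higher in every library of MCAO mice than in Sham, as were all 8 members. Their part in the members' rise was not tested.

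Cell types that carry Fabp4, Cd36 or Lpl outside the myeloid lineage gave low sums. Of 12 endothelial and mural markers, 8 were in the table, and they summed to 3.89 to 59.9 FPKM in MCAO+AS-exos, 3.44 to 10.3 FPKM in MCAO+Ctrl-exos, 2.65 to 7.59 FPKM in MCAO and 2.90 to 8.52 FPKM in Sham, where Ly6c1 and Slco1a4 were at 0. Within MCAO+AS-exos these sums were 3.89, 28.4, 22.8 and 59.9 FPKM in libraries 1 to 4, and 3 of the 4 lay above every other library. Ly6c1, up to 49.5 FPKM, and Vtn, at 18.8 FPKM in 1 library and a median of 0, made up most of these sums. Kdr averaged 0.74 ± 0.93 FPKM in MCAO+AS-exos and 1.98 ± 0.96 FPKM in MCAO+Ctrl-exos (SD, n = 4 each), and Pecam1 had a median of 1.76 FPKM in MCAO+AS-exos, 0.05 FPKM in MCAO+Ctrl-exos and 4.61 FPKM in Sham, so the list did not move as one. Of 8 adipocyte markers only Lep was in the table, at 0.01 FPKM or less in every library. Astrocyte, neuron and oligodendrocyte markers, 8 of 13 in the table, summed to 26.7 to 57.8 FPKM in MCAO+AS-exos, 28.8 to 69.9 FPKM in MCAO+Ctrl-exos, 37.5 to 75.2 FPKM in MCAO and 75.4 to 133 FPKM in Sham. The 1 of 10 lymphocyte markers in the table lay between 0.25 and 17.1 FPKM in the MCAO mice and between 8.67 and 50.01 FPKM in Sham.

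Between exosome treatments the first question was what MCAO+Ctrl-exos differed in from MCAO. None of the 8 members passed the threshold in limma, beside 0.0738% of all tested genes, and 2 had an unadjusted p below 0.05, beside 10.9% of all. Those 2 were the binding proteins, both with higher values in MCAO+Ctrl-exos. Fabp4 averaged 137 ± 47.0 FPKM in MCAO+Ctrl-exos and 66.9 ± 21.8 FPKM in MCAO (SD, n = 4 each), a log2 difference of 1.02 with a 95% interval of 0.21 to 1.83 (adjusted p = 0.34). Fabp5 averaged 4354 ± 728 FPKM in MCAO+Ctrl-exos and 2958 ± 767 FPKM in MCAO, a log2 difference of 0.58 with an interval of 0.04 to 1.13 (adjusted p = 0.429). No member separated the 2 groups without overlap, which 5.98% of tested genes did. The other 6 members had log2 differences of -0.73 (Lpl) to 0.49 (Plin3), with adjusted p of 0.624 to 0.93. The members' median was 0.13 and that of all tested genes -0.14.

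In MCAO+AS-exos against MCAO+Ctrl-exos, which differ in the source of the exosomes, the members went in different directions. None passed the threshold in limma, beside 0.286% of all tested genes, and 2, Msr1 and Fabp4, had an unadjusted p below 0.05, beside 19.6% of all. Without overlap between the groups were 3 of 8 members, beside 10.2% of tested genes: Msr1 was higher, beside 5.19% of tested genes, and Fabp4 and Plin3 were lower, beside 5.02%. Leaving out MCAO+AS-exos replicate 4 raised the share of all tested genes called to 12.0% and the members called to 2, Msr1 and Fabp4. The members' median log2 difference was 0.22 and that of all tested genes -0.08.

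Msr1 averaged 242 ± 53.6 FPKM in MCAO+AS-exos and 132 ± 29.8 FPKM in MCAO+Ctrl-exos (SD, n = 4 each), a log2 difference of 0.88 ± 0.27 (SE; adjusted p = 0.0942). Without MCAO+AS-exos replicate 4 it was 0.95 ± 0.28 and passed (adjusted p = 0.0383), and with MCAO+Ctrl-exos replicate 1 left out as well it was 0.96 and did not (adjusted p = 0.0615). Fabp4 averaged 49.2 ± 24.8 FPKM in MCAO+AS-exos and 137 ± 47.0 FPKM in MCAO+Ctrl-exos, a log2 difference of -1.57 ± 0.39 (adjusted p = 0.0654). Without MCAO+AS-exos replicate 4 it was -1.79 ± 0.40 and passed (adjusted p = 0.00833), and it also passed with both libraries left out, at -1.77 (adjusted p = 0.0191). With both left out 10.0% of all tested genes were called, and Fabp4 was the 1 member among them. Msr1 was called in 1 and Fabp4 in 2 of the 18 alternatives, over which the adjusted p ran between 0.0383 and 0.341 for Msr1 and between 0.00833 and 0.273 for Fabp4.

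Plin3 averaged 27.5 ± 5.07 FPKM in MCAO+AS-exos and 44.5 ± 4.40 FPKM in MCAO+Ctrl-exos, a log2 difference of -0.69 with a 95% interval of -1.48 to 0.11 (adjusted p = 0.322). Cd36 had a log2 difference of 0.76 with an interval of -0.10 to 1.62 (adjusted p = 0.308), and Fabp5 one of -0.53 with an interval of -1.07 to 0.02 (adjusted p = 0.268). Plin2 averaged 1755 ± 341 FPKM in MCAO+AS-exos and 1344 ± 318 FPKM in MCAO+Ctrl-exos, a log2 difference of 0.39 (adjusted p = 0.381) that was 0.55 without MCAO+AS-exos replicate 4 (adjusted p = 0.148). Lpl and Soat1 differed by 0.17 and 0.27, with adjusted p of 0.893 and 0.638. The intervals leave room for differences of either sign in Cd36, Fabp5 and Plin3, so these p-values do not show equal levels.

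In MCAO+AS-exos against MCAO none of the 8 members passed in limma, beside 6.14% of all tested genes, and 2 had an unadjusted p below 0.05, beside 25.7% of all. The 2 were the scavenger receptors. Cd36 averaged 48.6 ± 15.2 FPKM in MCAO+AS-exos and 23.6 ± 14.4 FPKM in MCAO (SD, n = 4 each), a log2 difference of 1.12 ± 0.41 (SE; adjusted p = 0.0997). Without MCAO+AS-exos replicate 4, the lowest of its group, Cd36 differed by 1.36 ± 0.42 and passed (adjusted p = 0.0328), the 1 member called beside 18.7% of all tested genes, and 19.9% of all with MCAO+Ctrl-exos replicate 1 left out too. Msr1 averaged 242 ± 53.6 FPKM in MCAO+AS-exos and 156 ± 20.9 FPKM in MCAO, a log2 difference of 0.62 ± 0.27 (adjusted p = 0.154). It was the 1 member of 8 without overlap, beside 14.4% of tested genes in either direction and 4.29% higher, and without MCAO+AS-exos replicate 4 its adjusted p was 0.099. The other 6 members differed by -0.56 (Lpl) to 0.20 (Plin2) on the log2 scale, with adjusted p of 0.39 to 0.923. The members' median was 0.11 and that of all tested genes -0.17. These 3 comparisons share groups, so their values are not independent.

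**Figure D2:**
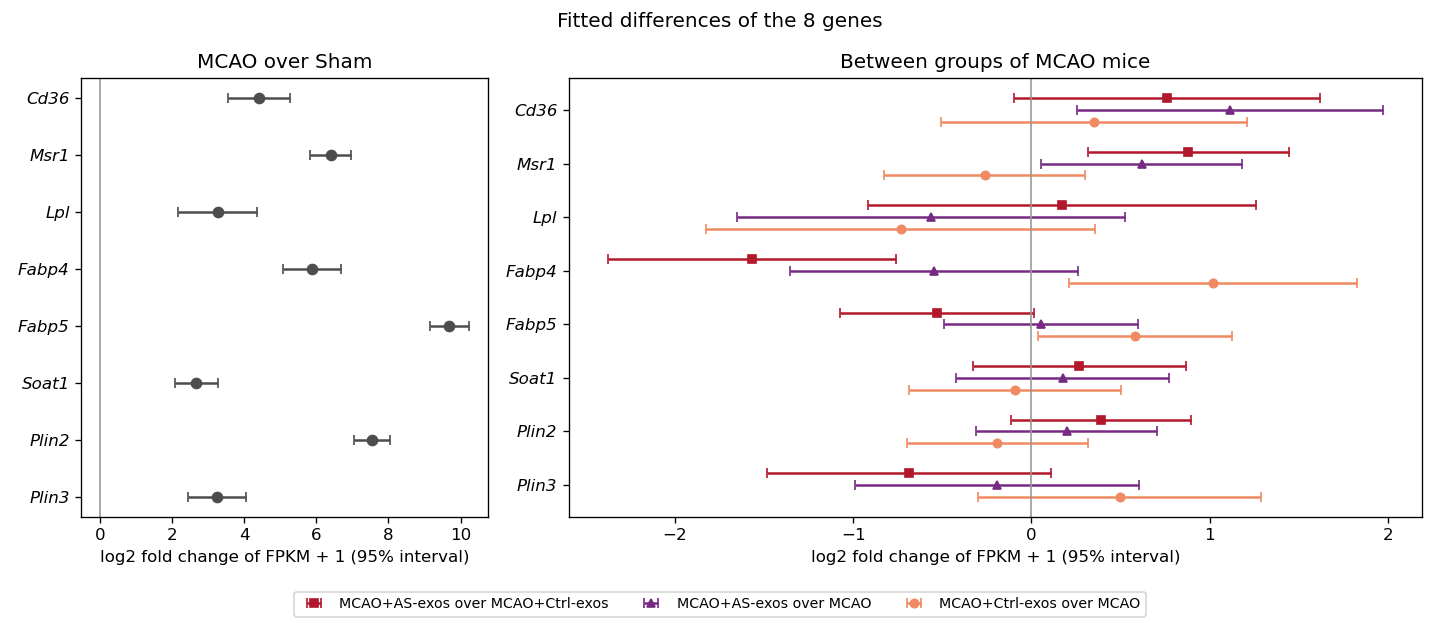
Log2 differences of FPKM + 1 for the 8 genes, with 95% intervals of the limma fit; the left plot gives MCAO over Sham and the right plot the 3 comparisons between groups of MCAO mice. On the left every interval lies above 0, and on the right Msr1 and Fabp4 in MCAO+AS-exos over MCAO+Ctrl-exos lie on opposite sides of 0.

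All-gene counts between the groups of MCAO mice shifted with scaling. MCAO+AS-exos against MCAO gave 115 genes higher and 551 lower, 96 and 222 with quantile normalization, and 139 and 233 with length and GC trends removed. With totals scaled the excess of lower genes grew, to 72 higher and 828 lower. MCAO+AS-exos against MCAO+Ctrl-exos gave 17 higher and 14 lower, and 38 and 50 with those trends removed. MCAO+Ctrl-exos against MCAO gave 5 higher and 3 lower, 2 and 3 with totals scaled and 2 and 2 with those trends removed. The directions of Msr1, Cd36, Fabp4 and Plin3 in MCAO+AS-exos against MCAO+Ctrl-exos were the same under each scaling, while Fabp5 in MCAO+AS-exos against MCAO differed by 0.05 as deposited, by -0.12 with quantile normalization and by -0.08 with totals scaled.

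Summed markers of other cells are given beside these differences, with no test between the exosome groups. In libraries 1 to 4 the monocyte sum was 25812, 22828, 25465 and 8098 FPKM in MCAO+AS-exos and 8995, 12617, 18166 and 12263 FPKM in MCAO+Ctrl-exos, so the groups overlapped. Lyz2 and Chil3 made up most of it, with medians of 17851 and 3171 FPKM in MCAO+AS-exos and 8177 and 846 FPKM in MCAO+Ctrl-exos. The other monocyte markers went both ways. Ly6c2 had a median of 220 FPKM in MCAO+AS-exos and 463 FPKM in MCAO+Ctrl-exos, and Ccr2 170 FPKM in MCAO+AS-exos and 217 FPKM in MCAO+Ctrl-exos. Medians of Fn1, Plac8, Vcan, Lyz1 and Itga4 were also lower in MCAO+AS-exos. Those of F13a1, Ms4a4c and Clec4e were higher, with 159 FPKM in MCAO+AS-exos and 114 FPKM in MCAO+Ctrl-exos for F13a1. The neutrophil sum was 7167, 6524, 8190 and 3539 FPKM in MCAO+AS-exos and 3657, 2724, 1834 and 2208 FPKM in MCAO+Ctrl-exos. Replicate 4 of MCAO+AS-exos was the lowest of its group in the monocyte and neutrophil sums, as it was in Cd36 and Plin2.

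Over the 12 libraries of MCAO mice, the log2 levels of the members were set against these sums, with Pearson's r and Spearman's rho as descriptions. Each member was set against the microglial, monocyte, border macrophage, neutrophil, and endothelial and mural sums. The pairs given first are those with the largest r in either direction, down to 0.58, so they are picked for size. With the neutrophil sum Soat1 had r = 0.73 (rho 0.76), Msr1 0.69 (0.63) and Plin2 0.68 (0.71). With the monocyte sum Cd36 had r = 0.58 (rho 0.50) and Lpl -0.65 (-0.70). Fabp5 had r = 0.66 (rho 0.58) with the border macrophage sum. With the homeostatic microglial sum Plin3 had r = -0.69 and Fabp4 -0.66, and by rank these were weaker, at -0.48 and -0.38. The next largest were Msr1 with the endothelial and mural sum (r = 0.56, rho 0.38) and Fabp5 with the microglial sum (-0.56, -0.16). By rank, Plin3 with the border macrophage sum (rho 0.59) and Cd36 with the endothelial and mural sum (0.58) were as close as Fabp5 above. These correlations describe libraries that share groups and scaling, and the markers' part in the differences was not tested.

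Pairs of members with kindred roles were also compared inside each library. Any factor that scales the whole library drops out of the plain ratio. In the tested ratio of FPKM + 1 it nearly drops out at high values, but not at values near or below 1, such as Cd36 and Fabp4 in Sham. These ratios were chosen after the values were seen. Plin2 over Plin3 was 66.8, 70.6, 92.5 and 37.5 in MCAO+AS-exos and 35.3, 25.6, 29.3 and 29.5 in MCAO+Ctrl-exos. In MCAO it was 54.0, 51.8, 34.3 and 56.7, and in Sham 24.5, 2.59, 2.89 and 0.84. All MCAO+AS-exos libraries exceeded all MCAO+Ctrl-exos libraries in this ratio. On the log2(FPKM + 1) scale it averaged 5.94 ± 0.54 in MCAO+AS-exos and 4.86 ± 0.19 in MCAO+Ctrl-exos (SD, n = 4 each), a difference of 1.08. An exact two-sided permutation test gave p = 0.0286, the smallest p that 4 against 4 libraries allow. After Benjamini-Hochberg adjustment over the 12 tests of ratios it was 0.0857. MCAO lay between them, with a log2 mean of 5.55. MCAO+AS-exos differed from MCAO by 0.39 (exact two-sided permutation p = 0.286, adjusted 0.374). MCAO+Ctrl-exos differed from MCAO by -0.69 (exact two-sided permutation p = 0.0571, adjusted 0.137).

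Fabp5 over Fabp4 was 99.6, 47.7, 117 and 40.5 in MCAO+AS-exos and 24.9, 35.1, 53.0 and 25.3 in MCAO+Ctrl-exos, with 49.7, 50.6, 42.5 and 38.2 in MCAO. MCAO+AS-exos and MCAO+Ctrl-exos overlapped here, and their log2 means of 6.07 ± 0.74 and 5.03 ± 0.51 (SD, n = 4 each) differed by 1.04 (exact two-sided permutation p = 0.0857, adjusted 0.171). From MCAO, this ratio differed by 0.60 in MCAO+AS-exos (exact two-sided permutation p = 0.286, adjusted 0.374). In MCAO+Ctrl-exos it differed from MCAO by -0.44 (exact two-sided permutation p = 0.171, adjusted 0.294). Msr1 over Cd36 had log2 means of 2.33 ± 0.55 in MCAO+AS-exos and 2.21 ± 0.91 in MCAO+Ctrl-exos, a difference of 0.12 (exact two-sided permutation p = 0.857). Its differences from MCAO were -0.50 in MCAO+AS-exos and -0.61 in MCAO+Ctrl-exos (exact two-sided permutation p = 0.343 and 0.314). Against Sham, Plin2 over Plin3 had a log2 mean of 5.55 in MCAO and 1.25 in Sham, and Fabp5 over Fabp4 was higher in MCAO by 3.82, both without overlap (exact two-sided permutation p = 0.0286 each, adjusted 0.0857). With Sham values this low, the size of those differences depends on the added 1. For Msr1 over Cd36 the direction depends on it: with 1 added the ratio was higher in MCAO by 1.99 on the log2 scale, while the plain ratio was 6.82, 3.34, 12.8 and 10.5 in MCAO and 34.0, 9.60 and 18.5 in the 3 Sham libraries where Cd36 was above 0. No direction is therefore given for it.

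**Figure D3:**
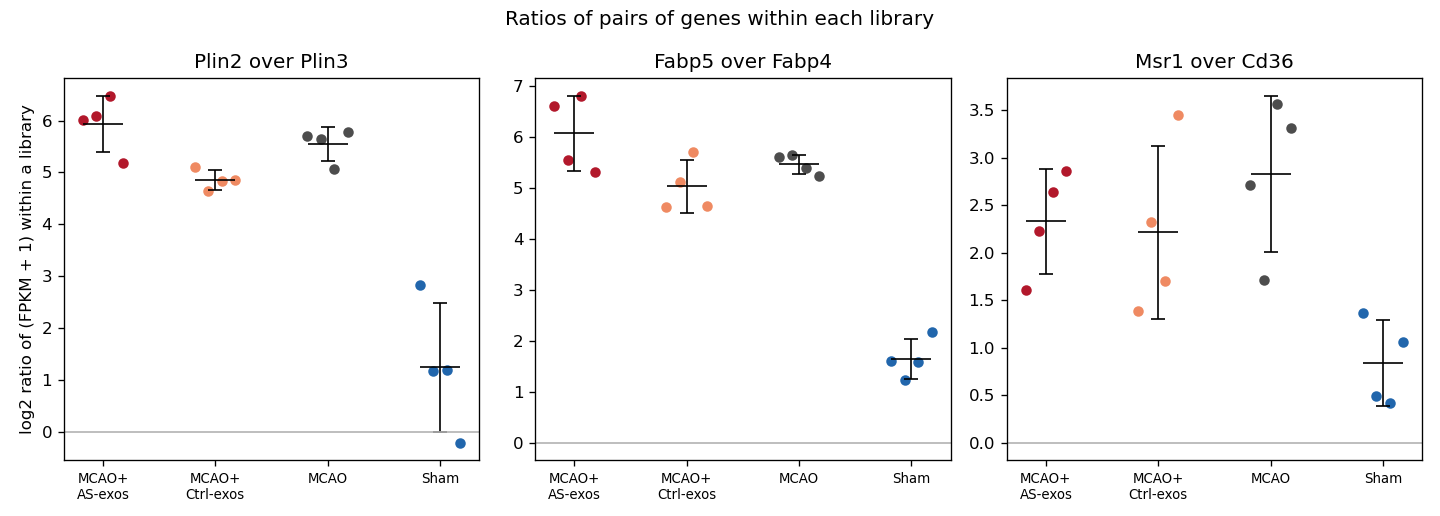
Log2 ratio of FPKM + 1 between 2 genes of the same library for Plin2 over Plin3, Fabp5 over Fabp4 and Msr1 over Cd36; points are libraries, and bars give the mean and SD of 4 libraries. The Plin2 to Plin3 ratio of MCAO+AS-exos lies above that of MCAO+Ctrl-exos in all libraries, and the Msr1 to Cd36 ratio overlaps between them. For Msr1 over Cd36 the low Sham values come with the added 1, and the plain ratio is not lower in Sham.

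Among themselves the members were compared over the 12 libraries of MCAO mice by Pearson's r of log2(FPKM + 1). Fabp4, Fabp5 and Plin3 varied together, with r of 0.87 for Fabp4 and Plin3, 0.753 for Fabp5 and Plin3 and 0.739 for Fabp4 and Fabp5. Plin2 varied with Cd36 (0.615), Soat1 (0.584) and Msr1 (0.562), while Msr1 and Plin3 varied inversely (-0.669). The 2 perilipins did not follow each other (-0.336). The genes most like each member were listed over all tested genes in the same 12 libraries. For Fabp4 they were Ube2s (0.915), Plin3 (0.87) and Ndufb2 (0.85), and for Plin3 they were 4931406P16Rik (0.90), 2310022B05Rik (0.886) and Fabp4 (0.87). For Fabp5 they were Cetn3 (0.865), Rbx1 (0.844) and Smim11 (0.843). For Plin2 they were Fbxl5 (0.92), Exosc1 (0.92) and Bub3 (0.912). For Msr1 they were I830077J02Rik (0.931), Dpep2 (0.927) and Lcn2 (0.92), a neutrophil marker, and for Cd36 they were Ivd (0.929), Gm20604 (0.897) and Edem2 (0.891). For Lpl they were Xpr1 (0.897), Wdr91 (0.896) and Tmem265 (0.894), and for Soat1 they were Dcakd (0.882), Chfr (0.84) and Angel1 (0.836). The libraries share groups and scaling, so these values describe likeness over 12 libraries and no more.

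The rest of the lipid pathway was read from 7 lists that leave the members out. Of 12 tested genes of other lipid uptake, 10 were higher in MCAO than in Sham and none lower, with a median log2 difference of 2.47. Over all tested genes 24.5% were higher and 14.8% lower, with a median of 0.25, and the counts of each list are to be read against these shares. Cxcl16, a membrane chemokine that also binds oxidised lipoprotein, averaged 277 ± 39.6 FPKM in MCAO and 49.6 ± 14.3 FPKM in Sham (SD, n = 4 each; log2 difference 2.49 ± 0.21, SE). Lrp1, the large endocytic receptor for lipoprotein remnants, averaged 51.5 ± 11.7 FPKM in MCAO and 8.78 ± 3.30 FPKM in Sham (2.45 ± 0.31). Of 8 tested lipid binding proteins, 4 rose (Fabp3, Fabp7, Dbi and Npc2) and none fell, with a median of 0.79. Fabp3, the heart-type binding protein, averaged 38.7 ± 23.9 FPKM in MCAO and 0.52 ± 0.96 FPKM in Sham, and Dbi, which binds acyl-CoA, 872 ± 297 FPKM in MCAO and 210 ± 25.6 FPKM in Sham.

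Droplet genes outside the members moved less evenly. Of 9 tested genes of droplet coat and assembly, Hilpda and G0s2 rose in MCAO, Tmem159 fell and 6 did not pass, with a median of 0.18. Hilpda and G0s2 both encode inhibitors of the triglyceride lipase ATGL. Hilpda averaged 163 ± 40.6 FPKM in MCAO and 13.4 ± 5.66 FPKM in Sham (SD, n = 4 each), while G0s2 measured 43.4, 16.9, 21.2 and 139 FPKM in MCAO and was listed at 0 in 3 of 4 Sham libraries. The 16 tested genes listed for triglyceride and sterol ester synthesis had a median of 0.18. Of these, 3 rose (Soat2, Agpat1 and Agpat4) and 5 fell (Gpam, Lpin1, Lpcat1, Lpcat2 and Lpcat3). The Lpcat genes on this list act on phospholipids, so its counts are not read as a change of triglyceride or sterol ester synthesis. Lpcat2, which remakes phosphatidylcholine, averaged 67.1 ± 10.9 FPKM in MCAO and 608 ± 33.2 FPKM in Sham (log2 difference -3.17), and Agpat4, an acyltransferase for phosphatidic acid, 18.5 ± 7.51 FPKM in MCAO and 0.0475 ± 0.0287 FPKM in Sham.

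Genes of lipid breakdown and its control were also read. Of 10 tested genes of lipolysis and lysosomal breakdown, 4 rose (Lipa, Nceh1, Angptl4 and Pla2g7), and Mgll, the monoglyceride lipase, fell. Angptl4 encodes a regulator and not a lipase, so its rise is not read as a rise of breakdown. Pla2g7, a phospholipase that hydrolyses oxidised phospholipids, averaged 416 ± 67.1 FPKM in MCAO and 0.85 ± 0.62 FPKM in Sham (log2 difference 7.86 ± 0.30), and Nceh1, a cholesterol ester hydrolase, 74.7 ± 4.38 FPKM in MCAO and 1.67 ± 2.01 FPKM in Sham. The list's median was 0.54. Of 17 tested genes of fatty acid oxidation, 7 rose and none fell, with a median of 0.56. Cpt1a, which admits fatty acids to mitochondria, averaged 51.2 ± 9.32 FPKM in MCAO and 8.73 ± 2.98 FPKM in Sham, and Acaa2, a mitochondrial thiolase, 69.2 ± 19.0 FPKM in MCAO and 15.3 ± 8.997 FPKM in Sham. Of 12 tested lipid sensing nuclear receptors and their cofactors, 8 rose and Ncoa4 fell, with a median of 1.09. Nr1h3, the sterol receptor LXR alpha, measured 36.7, 20.1, 19.1 and 17.4 FPKM in MCAO and was listed at 0 in 3 of 4 Sham libraries. Ncoa4, a coactivator that also carries ferritin to lysosomes, averaged 23.1 ± 4.62 FPKM in MCAO and 79.4 ± 22.2 FPKM in Sham.

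In MCAO+Ctrl-exos against MCAO none of the 84 tested genes of the 7 lists passed in limma, beside 0.0738% of all tested genes, and 7 had an unadjusted p below 0.05, beside 10.9% of all. In MCAO+AS-exos against MCAO+Ctrl-exos 16 of 84 had an unadjusted p below 0.05, beside 19.6% of all, and 1 passed, beside 0.286% of all. It was Tmem159, which encodes promethin, the partner of seipin in droplet formation. Tmem159 measured 19.9, 14.7, 17.4 and 20.4 FPKM in MCAO+AS-exos and 7.40, 2.74, 2.22 and 5.66 FPKM in MCAO+Ctrl-exos. MCAO libraries had 2.69, 5.19, 4.17 and 4.37 FPKM, and Sham libraries had 42.3, 28.9, 35.8 and 48.7 FPKM. In MCAO it fell by 2.97 ± 0.34 against Sham on the log2 scale (adjusted p = 8.8e-07), and the MCAO+AS-exos libraries lay between the groups without overlapping any of them. Tmem159 rose in MCAO+AS-exos by 1.89 ± 0.34 against MCAO+Ctrl-exos (log2, SE; adjusted p = 0.0285) and by 1.91 ± 0.34 against MCAO (adjusted p = 0.0153). The first call held in 12 of 18 alternatives and was lost, with adjusted p of up to 0.137, on leaving out MCAO+AS-exos replicate 1, 2 or 3 or MCAO+Ctrl-exos replicate 2 or 3, and in a fit of only the 8 libraries compared. The second held in 15 of 18 and was lost on leaving out MCAO+AS-exos replicate 1, 2 or 3 (adjusted p up to 0.0834).

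In MCAO+AS-exos against MCAO 6 of the 84 passed, Tmem159 and 5 more, a share near the 6.14% of all tested genes, so the count is no result about the lists. An unadjusted p below 0.05 was found in 28 of 84, beside 25.7% of all. Cd68, the lysosomal scavenger receptor of macrophages, rose by 0.93 ± 0.24 (log2, SE; adjusted p = 0.0367), with 2919, 2791, 2754 and 1441 FPKM in MCAO+AS-exos and 1287, 1380.4, 1474 and 943 FPKM in MCAO. Pnpla2, the triglyceride lipase ATGL of the droplet surface, rose by 1.25 (adjusted p = 0.0407), with 27.3, 39.9, 49.9 and 14.5 FPKM in MCAO+AS-exos and 13.2, 15.5, 10.2 and 9.73 FPKM in MCAO. Pla2g7 rose by 1.03 ± 0.30 (adjusted p = 0.0482), with 1155, 949.7, 1091 and 416 FPKM in MCAO+AS-exos and 317, 464, 449.6 and 433 FPKM in MCAO. In all 3 genes MCAO+AS-exos replicate 4 was the lowest of its group and lay within the range of MCAO. Ncor1, a corepressor of nuclear receptors, fell by 1.32 ± 0.32 (adjusted p = 0.0311), and Hsd17b11, a droplet-bound dehydrogenase, fell by 1.05 ± 0.30 (adjusted p = 0.0431). Ncor1 measured 8.92, 9.73, 9.17 and 27.0 FPKM in MCAO+AS-exos and 33.3, 28.1, 32.7 and 34.4 FPKM in MCAO. Each of these 5 calls held in 3 to 9 of 18 alternatives and was lost on leaving out any MCAO library or MCAO+AS-exos replicate 1, 2 or 3, and in a fit of only the 8 libraries compared, with adjusted p of up to 0.18 (Pla2g7). The median of the nuclear receptor list was -1.04, that of droplet coat and assembly 0.58 and that of all tested genes -0.17.

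**Figure D4:**
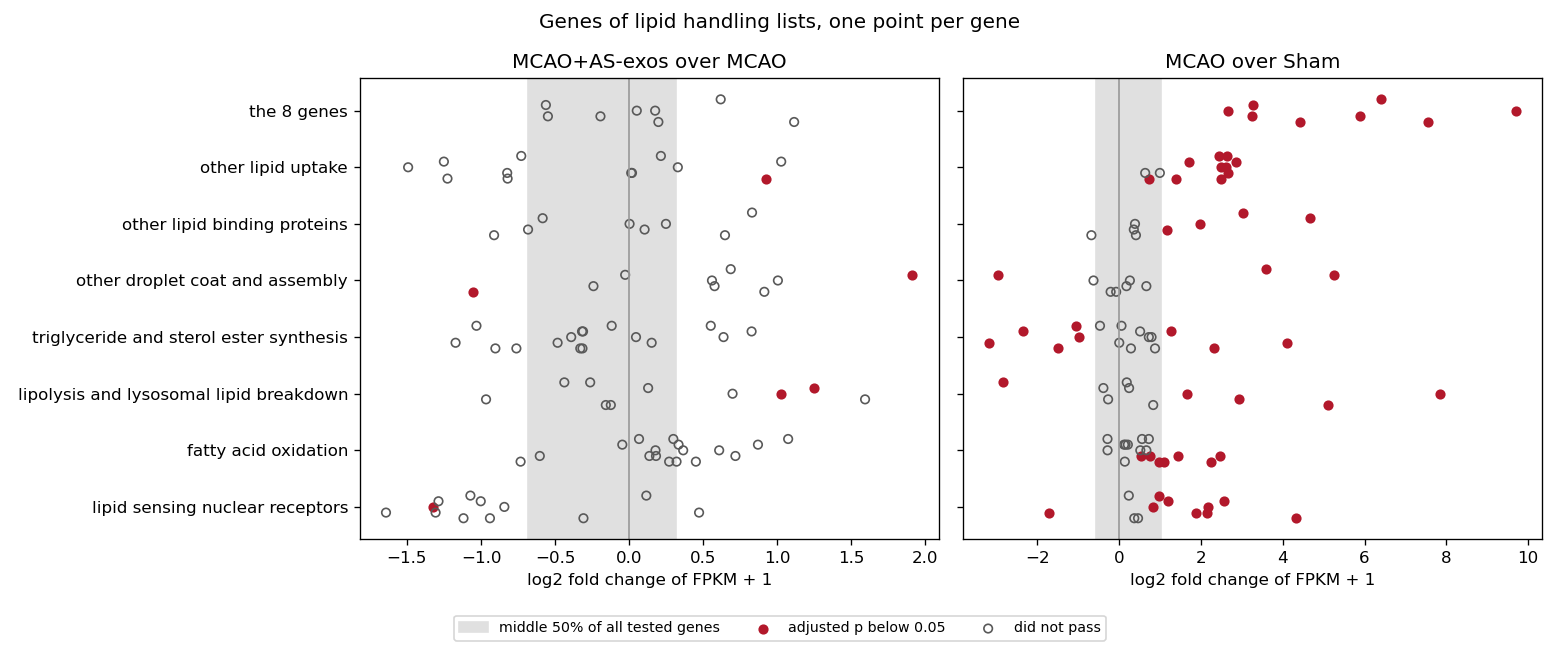
Log2 difference of FPKM + 1 for each tested gene of the 8 members and the 7 lists, for MCAO+AS-exos over MCAO on the left and MCAO over Sham on the right; filled points passed an adjusted p of 0.05, and the grey band holds the middle 50% of all tested genes. All 8 members lie right of the band in MCAO over Sham, and none of them is filled in MCAO+AS-exos over MCAO.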

How the data were processed

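Sorted cortical cells were profiled by RNA-seq in 16 libraries, grouped by the sample titles. Per the labels' protocols, amplified cDNA was made into transposon-based libraries. The submitters' processing notes name HISAT2, Bowtie2, RSEM 1.3.1 and the build GRCm39.p6 without roles; the sources used here give no annotation or filter. The deposited values were read as FPKM made by the authors, because RSEM is named and totals differ between libraries. TPM of part of the genes cannot be told apart from FPKM here, and would change each library by 1 factor. The table and the 16 single-library files held identical values to 2 decimals. No counts or depths were used here, so the precision of low values is unknown.

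The members and lists were chosen with earlier results of these data known. Values were taken as log2(FPKM + 1), and a gene was tested if 4 or more libraries reached 1 FPKM, which 10846 genes did. Limma 3.58.1 in R 4.3.3 fitted 4 group means over 16 libraries (eBayes with trend and robust, two-sided, Benjamini-Hochberg over tested genes, threshold 0.05). Ratios were tested by exact permutation. Named genes were the 8 members, the 2 genes of each list with the smallest p in MCAO against Sham, list genes that passed between MCAO groups, and the 3 genes most like each member. Other list genes are named to complete a count and were chosen after their values were seen. Alternatives are given in the closing section; scaled totals, removal of trends in length and GC content (GENCODE M21, by symbol) and leaving out 2 libraries together were added after the data were seen. The labels name no pairing by replicate number. Residuals of equal numbers correlated at -0.148 to 0.0923. Unequal numbers were not compared, so whether a number marks a shared batch cannot be told from this. The fit was tested on simulated data with each gene's residual SD, in which 200 of 10846 genes were changed. Over the 4 comparisons it recovered 9 to 15 of 100 genes changed by 1 on the log2 scale. Of 100 genes changed by 2 it recovered 58 to 72, and 2.38% to 8.05% of its calls were false. Most simulated differences of 1 were thus missed, so members that did not pass between MCAO groups are not shown to be equal. The simulated errors were independent, and no library was shifted as MCAO+AS-exos replicate 4 was. These rates therefore belong to the simulation and are not the sensitivity of each comparison here. Promoters came from the RefSeq table, which held 4 of the 8 members.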

Additional observations from a re-analysis of the deposited data

Results flagged for a closer look

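Of 32 groups of 4 values (8 genes in 4 groups), 2 held a library far from the other 3 by Dixon's test at 95%, which flags about 1 in 20 groups by chance. Plin2 measured 1245 FPKM in MCAO+AS-exos replicate 4 and between 1887 and 1956 FPKM in the other 3, a gap of 0.903 of the group's range. Msr1 measured 187 FPKM in MCAO replicate 4 and between 144 and 148 FPKM in the other 3, a gap of 0.901 of the range. MCAO+AS-exos replicate 4 also had the lowest monocyte marker sum of its group, 8098 FPKM, and MCAO replicate 4 had the highest neutrophil marker sum of its group, 9985 FPKM. Their part in the Plin2 and Msr1 values was not tested.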

How the results depend on the processing

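All 8 members were called higher in MCAO than in Sham under each alternative run: no filter, quantile normalization, a pseudocount of 0.1, a 5 FPKM minimum, no trend, the replicate block, the 8 libraries compared alone, each library left out, scaled totals, and length and GC trends removed. In MCAO+Ctrl-exos against MCAO, 8 genes were called, 3 with no filter, 2 without trend, 3 with the 8 libraries alone, 5 with totals scaled, 4 with trends in length and GC removed and 168 with MCAO+AS-exos replicate 4 and MCAO+Ctrl-exos replicate 1 both left out. In MCAO+AS-exos against MCAO+Ctrl-exos, 31 were called, 88 with quantile normalization, 93 with the 5 FPKM minimum, 16 without trend, 9 with the 8 libraries alone, 88 with those trends removed and 1088 with both libraries left out. In MCAO+AS-exos against MCAO, 666 were called, 318 with quantile normalization, 900 with totals scaled and 31 with the 8 libraries alone. With those trends removed 372 were called, and 2155 with both libraries left out. With the replicate block, 5 genes were called in MCAO+Ctrl-exos against MCAO, 68 in MCAO+AS-exos against MCAO+Ctrl-exos and 460 in MCAO+AS-exos against MCAO. The members' calls were 8, 0, 0 and 0 as without the block. With both libraries left out, 1 member was called in each MCAO+AS-exos comparison (Fabp4 against MCAO+Ctrl-exos, Cd36 against MCAO).

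Leaving out single libraries gave 3814 to 4251 genes in MCAO against Sham, 2 to 89 in MCAO+Ctrl-exos against MCAO, 1 to 1297 in MCAO+AS-exos against MCAO+Ctrl-exos and 0 to 2024 in MCAO+AS-exos against MCAO. The members called were 8 to 8, 0 to 0, 0 to 2 and 0 to 1. The highest counts were 89 without MCAO+Ctrl-exos replicate 1, and 1297 and 2024 without MCAO+AS-exos replicate 4; the cause was not tested. None of the members that changed sign had passed the threshold: Soat1 in MCAO+Ctrl-exos against MCAO (0.022 with length and GC trends removed), Lpl in MCAO+AS-exos against MCAO+Ctrl-exos (-0.20 to 0.34 with single libraries left out, below 0 without MCAO+Ctrl-exos replicate 3 or MCAO+AS-exos replicate 4) and Fabp5 in MCAO+AS-exos against MCAO (-0.12 with quantile normalization, -0.077 with totals scaled, and -0.13 to 0.22 with single libraries left out, below 0 without MCAO replicate 1 or MCAO+AS-exos replicate 1). Depth is unknown, so how far the lowest Sham values of Cd36 and Fabp4 are limited by it cannot be given.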
